A study of Danio rerio with 8 samples.

Results

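The pigment cell genes described here were 9 zebrafish genes, dct, tyr, tyrp1b, pmela, mitfa, sox10, gch2, slc24a5 and slc45a2. They were found on the array through the transcript accession given for each probe, matched to current symbols, and were measured by 19 of 39162 probes, or 9 of 12792 genes with a symbol. No filter on low values was applied, so all 19 probes entered the tests. Expression was measured on 8 arrays, and the RNA of each array came from 50 pooled whole AB embryos collected at 24 h post fertilisation (hpf) and injected at the 1-cell stage with 1.5 ng of a morpholino, an antisense oligonucleotide, and 0.25 ng of a microRNA mimic. Control embryos (MO-Ct, 2 arrays) had received a control morpholino with the control mimic miR-Ct, Tbx5a morphants (MO-Tbx5a, 3 arrays) miR-Ct with a tbx5a morpholino directed at the start of translation, and the third group (MO-Tbx5a+miR-19a, 3 arrays, called the miR-19a group) that tbx5a morpholino with the miR-19a mimic. The study asked how the transcriptome changes when the heart and fin transcription factor Tbx5a is depleted, and whether the miR-19a mimic moves it back. Here the pigment genes were used to ask whether the groups differed in a programme that is turned on around the sampled stage. All embryos were labelled 24 hpf, with no earlier or later time point analysed here, so a difference in stage and a difference in expression at one stage cannot be told apart.

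Zebrafish pigment cells come from the neural crest, except the pigmented epithelium of the retina, which comes from the optic cup. Sox10 is needed in crest cells for the pigment lineages and activates mitfa, whose product, the transcription factor Mitfa, turns on the melanin genes in melanophores, the black cells. Tyrosinase starts melanin synthesis from tyrosine, and the related enzymes Dct and Tyrp1 act further along the pathway. Pmel proteins form the fibrils on which melanin is laid down in the melanosome, and the transporters Slc24a5 and Slc45a2, mutated in golden and albino fish, are needed for normal melanin content. Xanthophores, the yellow cells, make pteridines through GTP cyclohydrolase, encoded by gch2, and iridophores reflect light from purine crystals. Melanin genes rise in the retina and the trunk from the end of segmentation onwards. In whole embryos fewer cells of a type and less RNA per cell cannot be told apart.

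The deposited log2 values were used as given, with medians of 7.77 to 7.80 on the 8 arrays. Calls were made with limma where the fold change exceeded 1.3 and both the p-value and the p adjusted over all probes by Benjamini and Hochberg were under 0.05, and each gene was represented by its probe with the highest mean over the 8 arrays, the brightest probe. Levels of different probes are not comparable on arrays, so levels were compared only between groups for the same probe. The study calls the arrays of a group biological replicates, but the sources do not say whether they came from separate injections, so p-values measure only the spread between these arrays. The labels give 200 ng of RNA and one labelling kit for the MO-Ct and MO-Tbx5a arrays but 0.5 ug and a different kit for the miR-19a group, so kit and group cannot be told apart in comparisons with that group. One label of the latter samples reads MO-19a, but both the titles and the design describe the mimic, which was taken as the treatment. Over all probes, the scans of these 3 samples were closer to another column of values than to their own. The correlation across probes was 0.9345, 0.936 and 0.9345 with the own column against 0.9461, 0.948 and 0.9411 with MO-Ct replicate 2. Taken as deviations from the group mean, scan 2 was related to its own column (r 0.248) and scans 1 and 3 hardly or not (-0.086 and 0.067). Scan 3 was instead related to the column of replicate 1 (r 0.245), and scan 1 had its highest r with that of replicate 2 (0.115). Whether scans and columns share their replicate numbers was not tested, and all results for the miR-19a group come from the deposited columns. No probe for tbx5a is analysed here, and the depletion was not checked on the arrays.

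**Figure D1:**
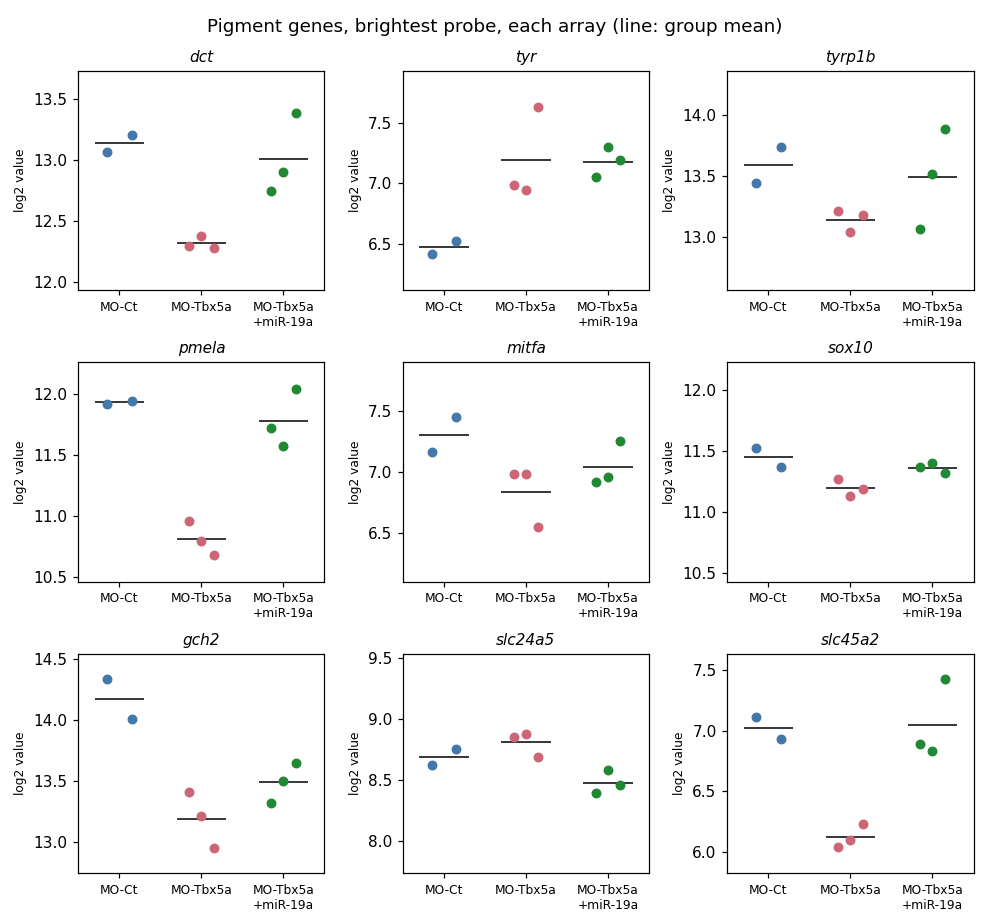
Deposited log2 value of the brightest probe (y axis) of each pigment gene in each array (points) of MO-Ct (n = 2), MO-Tbx5a (n = 3) and the miR-19a group (n = 3), with group means as lines and every panel spanning the same number of log2 units. All MO-Tbx5a points of dct, pmela, gch2 and slc45a2 lie below all MO-Ct points, whereas those of tyr lie above.

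MO-Tbx5a was compared with MO-Ct first, since these groups share a labelling kit. Most of the pigment genes were lower in Tbx5a morphants: dct, pmela, mitfa, gch2 and slc45a2 were called lower, tyr was called higher, and tyrp1b, sox10 and slc24a5 did not pass the test. The falls called ran from 1.38-fold for mitfa to 2.17-fold for pmela. The background was high, since 20.6% of all genes were called lower and 16.5% higher by their brightest probe, and 37.1% in either direction. Against these shares 5 of 9 members were called lower and 1 higher. The median change of the 9 genes was -0.47 on the log2 scale, beside -0.03 over all genes by their brightest probe and 0.01 over all probes. Without overlap between the arrays of the groups, 7 members were lower and 1 higher, beside 33.7% of all genes lower without overlap and 61.1% in either direction. Fitted on the arrays of MO-Ct and MO-Tbx5a alone, without the 3 arrays whose scans were closer to another column, 7 members were called, 6 lower and 1 higher, with tyrp1b as the additional one (adjusted p 0.0228 in limma).

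Among the enzymes of melanin synthesis, dct (dopachrome tautomerase) had values of 13.07 and 13.21 in MO-Ct, 12.30, 12.38 and 12.28 in MO-Tbx5a, and 12.75, 12.90 and 13.39 in the miR-19a group. The MO-Tbx5a arrays lay below all others. The gene was 1.77-fold lower in MO-Tbx5a than in MO-Ct (change -0.82, SE 0.17, adjusted p 0.00194, limma). It was 1.62-fold higher in the miR-19a group than in MO-Tbx5a (change 0.69, SE 0.15, adjusted p 0.00203). Between the miR-19a group and MO-Ct the arrays overlapped and the change was -0.13 (95% interval -0.49 to 0.23, adjusted p 0.669). The other probes for dct did not share this pattern. One changed by -0.24 in MO-Tbx5a against MO-Ct (adjusted p 0.33) and was called 0.45 higher with the mimic (adjusted p 0.0413), and the other changed by 0.21 and -0.24, neither called. With the mean of all probes in place of the brightest, dct changed by -0.28 (adjusted p 0.139) and 0.30 (adjusted p 0.0727), and both calls were lost.

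For tyr (tyrosinase) the brightest probe read 6.42 and 6.53 in MO-Ct, 6.99, 6.95 and 7.63 in MO-Tbx5a, and 7.05, 7.30 and 7.19 in the miR-19a group. Both groups with the tbx5a morpholino lay above the control, and they overlapped each other. The gene was 1.64-fold higher in MO-Tbx5a than in MO-Ct (change 0.72, SE 0.18, adjusted p 0.00795) and 1.63-fold higher in the miR-19a group than in MO-Ct (0.71, SE 0.18, adjusted p 0.0287). Addition of the mimic left a change of -0.01 (95% interval -0.37 to 0.35). It was the one member called higher in MO-Tbx5a by its brightest probe, in the direction opposite to the brightest probes of dct and pmela. The rise in MO-Tbx5a was no longer called without MO-Ct replicate 1 (change 0.66, adjusted p 0.062). The change between the miR-19a group and MO-Ct kept its size when either MO-Ct array or any of the 3 mimic arrays was left out (0.645 to 0.77), but it was no longer called (adjusted p 0.0524 to 0.154). The second tyr probe lay near the lower end of the values, at 5.30 and 5.46 in MO-Ct, 5.27, 5.32 and 5.21 in MO-Tbx5a, and 5.26, 5.19 and 5.38 in the miR-19a group. It was not called in any comparison.

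The only probe of tyrp1b (tyrosinase-related protein 1b) had 13.44 and 13.74 in MO-Ct, 13.21, 13.04 and 13.18 in MO-Tbx5a, and 13.07, 13.52 and 13.89 in the miR-19a group. The MO-Tbx5a values were below both controls, but the mimic arrays spread over the range of both other groups. The change was -0.45 in MO-Tbx5a against MO-Ct (95% interval -0.87 to -0.02, adjusted p 0.0866) and 0.35 with the mimic (95% interval -0.03 to 0.73, adjusted p 0.117), so neither passed. Both results changed when single mimic arrays were left out. Without miR-19a group replicate 1 the first comparison had an adjusted p of 0.0324 and the second a change of 0.56 with an adjusted p of 0.0106, and without replicate 3 the first had an adjusted p of 0.0391.

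Of the melanosome proteins, pmela (premelanosome protein a) showed the largest fall of the 9 genes by the brightest probe. Its values were 11.92 and 11.94 in MO-Ct, 10.96, 10.79 and 10.68 in MO-Tbx5a, and 11.72, 11.57 and 12.04 in the miR-19a group. The MO-Tbx5a arrays stood clear of the other groups, which overlapped each other. The gene was 2.17-fold lower in MO-Tbx5a than in MO-Ct (change -1.12, SE 0.15, adjusted p 0.000118) and 1.95-fold higher with the mimic than without (0.97, SE 0.13, adjusted p 8.74e-05). Between the miR-19a group and MO-Ct the change was -0.15 (95% interval -0.48 to 0.17).

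A second pmela probe, assigned to the same transcript, moved the other way. It read 8.60 and 8.69 in MO-Ct, 9.29, 9.02 and 9.06 in MO-Tbx5a, and 8.13, 8.52 and 8.39 in the miR-19a group. This probe was called 0.48 higher in MO-Tbx5a than in MO-Ct (adjusted p 0.017) and -0.78 with the mimic against MO-Tbx5a (adjusted p 0.000303), each without overlap. Averaged over both probes, pmela changed by -0.32 in MO-Tbx5a against MO-Ct (adjusted p 0.041, under the fold threshold) and by 0.10 with the mimic (adjusted p 0.466). The direction given for pmela is therefore that of its brighter probe alone.

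Of the transporter genes slc45a2 was called and slc24a5 was not. The single slc45a2 probe had 7.11 and 6.93 in MO-Ct, 6.04, 6.10 and 6.23 in MO-Tbx5a, and 6.89, 6.83 and 7.42 in the miR-19a group, so the MO-Tbx5a arrays were the lowest and the other groups overlapped. It was 1.86-fold lower in MO-Tbx5a than in MO-Ct (change -0.90, SE 0.17, adjusted p 0.00115) and 1.90-fold higher with the mimic (0.92, SE 0.15, adjusted p 0.000293). The calls of slc45a2 in these comparisons held under each alternative run except a fold threshold of 2, with adjusted p up to 0.0177 and 0.00183. For slc24a5 the brightest probe had 8.62 and 8.75 in MO-Ct, 8.85, 8.88 and 8.69 in MO-Tbx5a, and 8.39, 8.58 and 8.46 in the miR-19a group. The first groups overlapped (change 0.12, 95% interval -0.14 to 0.39, adjusted p 0.457). The mimic arrays lay below all the others. The change with the mimic was -0.33 (SE 0.11, adjusted p 0.0241), which is 1.26-fold and under the fold threshold, and it passed that threshold without MO-Tbx5a replicate 3 (-0.39) or without miR-19a group replicate 2 (-0.38). The second slc24a5 probe stayed between 7.90 and 8.11 on all 8 arrays and was not called.

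**Figure D2:**
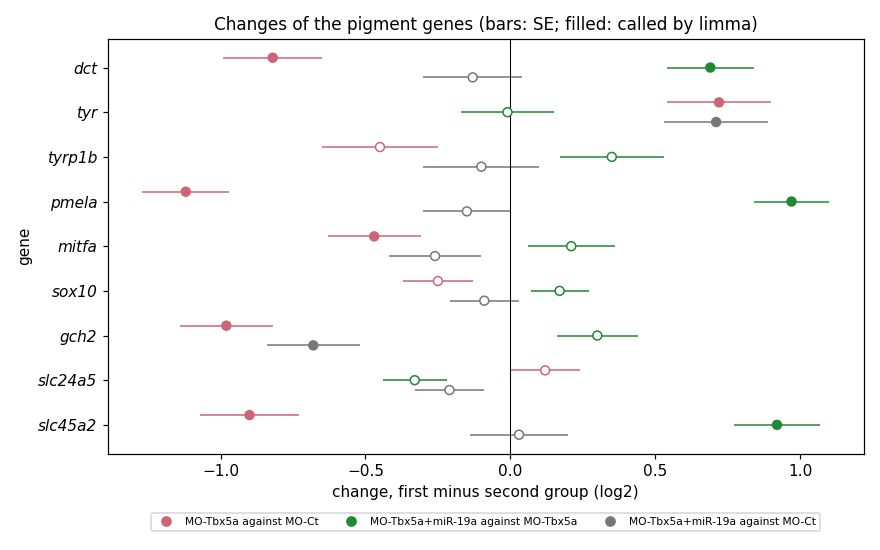
Change of each pigment gene by its brightest probe (x axis, log2, first group minus second) in the 3 comparisons, with standard errors as bars and filled points for genes called by limma. In MO-Tbx5a against MO-Ct 5 genes are called below 0 and tyr above 0, and with the mimic against MO-Tbx5a dct, pmela and slc45a2 are called above 0.

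Of the regulators upstream of the melanin genes, mitfa was called in MO-Tbx5a against MO-Ct and sox10 was not. For mitfa the values were 7.16 and 7.45 in MO-Ct, 6.98, 6.98 and 6.55 in MO-Tbx5a, and 6.92, 6.96 and 7.25 in the miR-19a group. The mimic arrays overlapped both other groups. Mitfa mRNA was 1.38-fold lower in MO-Tbx5a than in MO-Ct (change -0.47, SE 0.16, adjusted p 0.0374). This call was lost without MO-Ct replicate 2 (change -0.32, adjusted p 0.278) or without MO-Tbx5a replicate 3 (change -0.33, adjusted p 0.112). With the mimic mitfa changed by 0.21 (95% interval -0.11 to 0.53, adjusted p 0.266).

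The brightest probe of sox10 had 11.53 and 11.37 in MO-Ct, 11.27, 11.13 and 11.19 in MO-Tbx5a, and 11.37, 11.40 and 11.32 in the miR-19a group. MO-Tbx5a was the lowest group by a narrow margin. Its change was -0.25 (SE 0.12, adjusted p 0.0998) in MO-Tbx5a against MO-Ct and 0.17 (SE 0.10, adjusted p 0.204) with the mimic, so it was not called in either. The other sox10 probe gave -0.19 and 0.11, also not called.

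The pteridine enzyme gene gch2 was measured by 5 probes and was the member with most of them. The brightest probe had 14.34 and 14.01 in MO-Ct, 13.41, 13.21 and 12.95 in MO-Tbx5a, and 13.32, 13.50 and 13.65 in the miR-19a group. MO-Ct lay above both morphant groups, which overlapped. The gene was 1.98-fold lower in MO-Tbx5a than in MO-Ct (change -0.98, SE 0.16, adjusted p 0.000482), and each of the 5 probes was called lower, by changes from -0.53 to -1.16. By the brightest probe the change with the mimic was 0.30 (SE 0.14, adjusted p 0.104) and was not called. Of the other 4 probes 3 were called higher with the mimic, at 0.72 (adjusted p 0.000428), 0.64 (adjusted p 0.016) and 0.51 (adjusted p 0.0451), and the fourth changed by -0.15 (adjusted p 0.385). The brightest probe passed the test without MO-Tbx5a replicate 1 (0.41, adjusted p 0.0496), and so did the mean of the 5 probes (0.40, adjusted p 0.013).

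Against MO-Ct gch2 was 1.61-fold lower in the miR-19a group by the brightest probe (change -0.68, SE 0.16, adjusted p 0.019). A second gch2 probe was called at -0.68 as well (adjusted p 0.016), and the other 3 changed by -0.19, -0.51 and -0.47 and were not called. The call of the brightest probe was lost without MO-Ct replicate 1 (adjusted p 0.161), without MO-Ct replicate 2 (0.0501) or without miR-19a group replicate 1 (0.0676).

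**Figure D3:**
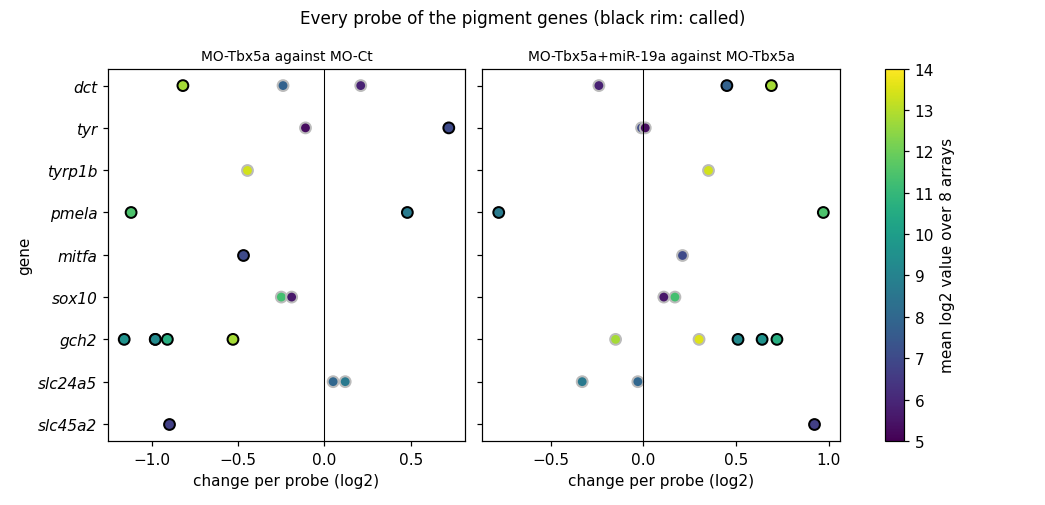
Change of each of the 19 probes of the pigment genes (x axis, log2) in MO-Tbx5a against MO-Ct (left) and the miR-19a group against MO-Tbx5a (right), coloured by mean log2 value over the 8 arrays, with a black rim for probes called by limma. The 5 gch2 probes are all called lower on the left, and the pmela probes are called in opposite directions in both panels.

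Over all 19 probes, 9 were called lower and 2 higher in MO-Tbx5a against MO-Ct, beside 19.6% of all probes called lower and 38.4% in either direction. The probes called higher were one of tyr and one of pmela. As the plot of every probe shows, gch2 was the only member with more than 1 probe in which all its probes were called the same way in this comparison. The probes of dct, tyr and pmela did not share a call, and no probe of sox10 or slc24a5 was called.

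The effect of the mimic in Tbx5a-depleted embryos was examined next. Of the 9 genes, dct, pmela and slc45a2 were called higher in the miR-19a group than in MO-Tbx5a, none was called lower (1, slc24a5, at an unadjusted p under 0.05 in limma), and tyr, tyrp1b, mitfa, sox10, gch2 and slc24a5 were not called. This is 3 of 9 higher, beside 21% of all genes called higher, 20.3% lower and 41.3% in either direction. The median change of the members was 0.30, beside 0.01 over all genes by their brightest probe and -0.02 over all probes. The arrays of the groups did not overlap for 5 of the 9 genes, 4 of them higher and 1 lower, beside 57% of all genes in either direction and 28.3% lower. By probe, 7 of 19 were called higher and 1 lower, beside 20.2% of all probes called higher and 42.2% in either direction. Dct, pmela and slc45a2 were also called lower in MO-Tbx5a, but both comparisons use the same MO-Tbx5a arrays, so their opposite signs are not independent of each other. The other genes called lower in MO-Tbx5a, mitfa and gch2, did not pass with the mimic by their brightest probe, and the change of tyr was near 0.

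Compared with MO-Ct, the embryos given the mimic differed in 2 of 9 genes, with tyr called higher and gch2 lower, beside 5.52% of all genes called higher, 6.62% lower and 12.1% in either direction. The median change was -0.13, beside -0.03 over all genes by their brightest probe. The other 7 genes were not called, with changes from -0.26 for mitfa to 0.03 for slc45a2. Their 95% intervals reached as far as -0.62 for mitfa and 0.39 for slc45a2, so changes up to those sizes are not excluded for these genes. By probe, 1 of 19 was called higher and 2 lower, beside 5.24% of all probes called higher, 5.95% lower and 11.2% in either direction. The arrays did not overlap for tyr, which was higher, and for gch2 and slc24a5, which were lower, beside 45.7% of all genes in either direction and 26.2% lower.

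As a summary of level, the mean of the 9 brightest probes was 10.401 and 10.437 in MO-Ct, 10.001, 9.940 and 9.931 in MO-Tbx5a, and 10.164, 10.284 and 10.512 in the miR-19a group. MO-Tbx5a lay below both other groups, and the mimic arrays spread most. Replicate 3 of the miR-19a group was the highest array of its group for 6 of the 9 genes, beside 33.3% of all genes, and replicate 1 was the highest for 0 of 9, beside 27.1%. For dct, tyrp1b and slc45a2 replicate 3 exceeded replicate 1 by 0.64, 0.82 and 0.53 in the deposited values. In the scans labelled with the same replicate numbers these differences were -0.07, -0.19 and -0.16 after scaling to the 75th percentile. The sign in the scans was also opposite for tyr and sox10, and it was the same for pmela, mitfa, gch2 and slc24a5. As deviations from the group mean, scan 3 was related more to the column of replicate 1 (r 0.245) than to its own (0.067). Over all probes it was slightly closer to its own (0.9345) than to replicate 1 (0.9307). These differences therefore cannot be read replicate by replicate. Without replicate 3 the median change of the 9 genes against MO-Ct was -0.285 instead of -0.127.

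The genes whose brightest probe followed the mean of the pigment genes most closely over the 8 arrays, with members and clone names left out, were tuba5 (Pearson r 0.988), ccdc71 (0.986) and hsc70 (0.984). These are descriptions over 8 arrays that fall into 3 groups, and they carry no test. Their changes in MO-Tbx5a against MO-Ct were -0.40, -0.68 and -2.03 on the log2 scale.

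Further genes of the pigment pathways were taken as lists. Of 22 genes for melanin synthesis and the melanosome beyond the members, 13 had a probe, and in MO-Tbx5a against MO-Ct 3 of these were called lower, 0 higher and 10 were not called (median -0.07), with 3 lower and 0 higher at an unadjusted p under 0.05 in limma as well. The clearest was pmelb, the paralogue of pmela, which averaged 9.62 ± 0.08 (SD) over the 2 control arrays but 8.15 ± 0.03 (SD) over the 3 MO-Tbx5a arrays, a change of -1.46 (adjusted p 3.2e-05). The others were vps18, a subunit of an endosomal tethering complex (-0.67, with its other probe at -0.08), and gpr143, a melanosomal receptor (-0.58). The melanophore marker trpm1b was among the genes not called (-0.37, adjusted p 0.122 in limma). With the mimic pmelb was called 1.25 higher (adjusted p 2.13e-05 in limma), while the channel gene trpm1a was called at -0.88, and the median was -0.01. The copper transporter atp7a was called 0.42 higher, near the lower end of the values (5.51 in the miR-19a group, 5.09 in MO-Tbx5a). The share of the list called with the mimic was 23.1%, below the 41.3% of all genes. At an unadjusted p under 0.05 in limma 4 were higher and 3 lower. Vps18 (0.34) and gpr143 (0.32) rose, and slc24a4a (-0.36) and vps39 (-0.35) fell, each without overlap but under the fold threshold. Against MO-Ct trpm1a was the only gene of this list called, at -0.61 (adjusted p 0.0485), or 7.69% beside 12.1% of all genes. The 23.1% called in MO-Tbx5a against MO-Ct lay below the 37.1% of all genes.

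Genes of pteridine and purine synthesis, used by xanthophores and iridophores but also by dividing cells in general, were called lower in 7 of 16 and higher in 1 of 16 in MO-Tbx5a against MO-Ct (median -0.19), beside 20.6% and 16.5% of all genes. Atic, which carries out the last steps of purine synthesis, fell by 1.37 (12.05 ± 0.01 in MO-Ct, 10.68 ± 0.12 in MO-Tbx5a, adjusted p 1.6e-05). The iridophore gene pnp4a fell by 1.35 (9.05 ± 0.07 and 7.70 ± 0.06, adjusted p 1.58e-05), the xanthophore gene aox5 by 0.77 (adjusted p 0.000355) and the purine enzyme gene paics by 0.68 (adjusted p 0.00086). The gene called higher was pts, a pteridine enzyme, at 0.63, which the rule for named genes did not select and which was named after its value was seen. With the mimic 4 genes were called higher and 3 lower (median -0.03), which at 43.8% is near the 41.3% of all genes, among them pnp4a at 1.41, atic at 1.13 and paics at 0.63, while mtap changed by -0.69. Against MO-Ct mtap (-0.71, 3 probes from -0.71 to -0.24), impdh1b (-0.61, 5 probes from -1.15 to -0.04) and ppat (-0.57, other probe -0.29) were called lower and none higher. This is 18.8% of the list, beside 6.62% of all genes called lower and 12.1% in either direction. At an unadjusted p under 0.05 in limma 6 were lower and 1 higher.

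Regulators of the neural crest and of pigment cell fate changed in both directions. In MO-Tbx5a against MO-Ct 2 of 22 were called higher and 2 lower (median 0.02), which is 18.2% beside the 37.1% of all genes. Kitlga, the ligand of the melanophore receptor Kita, rose by 1.05 (adjusted p 0.000198 in limma) and sox5 by 0.64, although the other sox5 probe changed by -0.66. The receptor gene kita changed by 0.20 (adjusted p 0.514) and was not called. Tfap2e (-0.44) and the iridophore receptor gene ednrba (-0.40) were called lower. Other markers of xanthophores, pax7b (0.38), csf1ra (0.14) and pax7a (-0.05), were not called. Nor were the iridophore markers ltk (-0.05) and tfec (-0.01). In MO-Ct ltk (5.08), tfec (5.64) and csf1ra (6.03) lay toward the lower end of the values, where a fall can be compressed. Ltk, the lowest of them, therefore cannot show whether it shared the falls of pnp4a and ednrba. For tfec the interval of the change in limma, -0.27 to 0.25, did not reach the -0.40 of ednrba. The segmentation gene mespbb was called lower at similar levels, from 6.26 in MO-Ct to 5.25 in MO-Tbx5a. Whether a fall of tfec was compressed was not tested. Pax7b (7.90 in MO-Ct) and pax7a (7.43) lay higher and did not share the fall of the xanthophore gene aox5. In whole embryos any expression of these genes in other tissues is included, so they cannot show how xanthophores themselves changed. Markers of the crest itself, which the rule for named genes did not select in this comparison, were not called in limma. Crestin changed by 0.06 (adjusted p 0.758), tfap2a by -0.11 (adjusted p 0.569) and foxd3 by -0.38 (adjusted p 0.0739). Snai1b changed by -0.21 (adjusted p 0.213), sox9b by 0.23 (adjusted p 0.246) and snai2 by -0.51 (adjusted p 0.0612). Of the whole list 3 were higher and 4 lower at an unadjusted p under 0.05. With the mimic 3 were called higher and 5 lower (median -0.05), or 36.4% beside 41.3% of all genes. Foxd3 rose by 0.83 (adjusted p 0.000431), and pax3a (-0.82), kitlga (-0.81) and pax7b (-0.69, with its other probe at 0.23) were called lower. None of the 22 was called against MO-Ct in limma, beside 12.1% of all genes. At an unadjusted p under 0.05, 4 of the 22 were lower and 1 higher in that comparison.

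**Figure D4:**
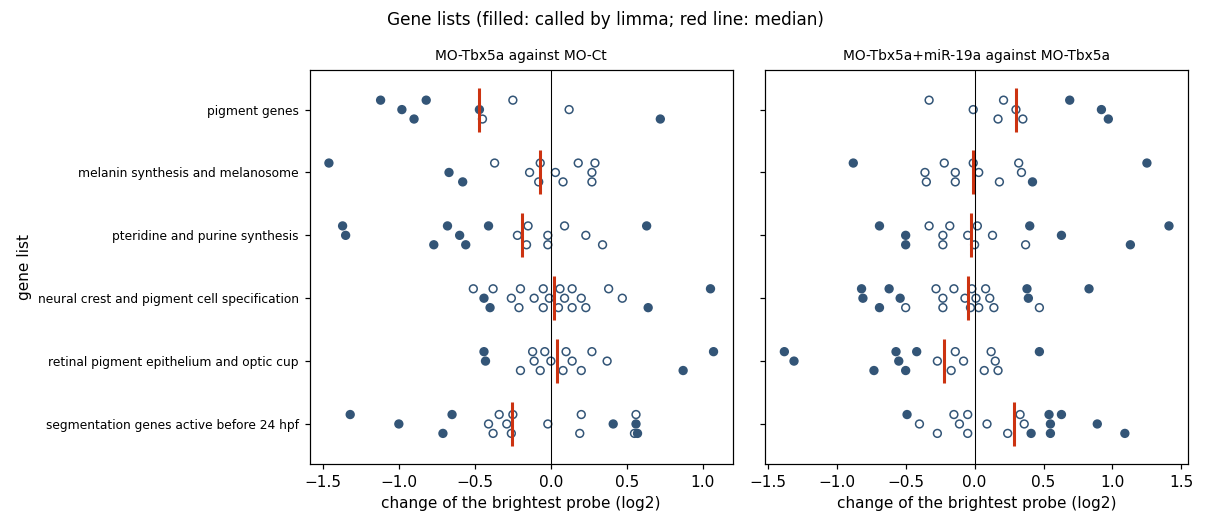
Change of the brightest probe (x axis, log2) of each measured gene in the pigment gene set and in 5 further lists, in MO-Tbx5a against MO-Ct (left) and the miR-19a group against MO-Tbx5a (right), with filled points called by limma and the list median as a red line. The pigment genes have the lowest median on the left, -0.47, and the highest on the right, 0.30.

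Since the melanin genes are also expressed in the eye, genes of the retinal pigment epithelium and optic cup were set beside them. All 16 had a probe, of which 2 rose and 2 fell in MO-Tbx5a against MO-Ct (median 0.04), or 25% beside 37.1% of all genes. The pigment epithelium gene rpe65a (-0.44, adjusted p 0.0121 in limma) and the listed gene rlbp1a (-0.43, adjusted p 0.0227) fell. The eye homeobox gene pax6b rose (0.87, adjusted p 0.00282). Rlbp1b (-0.11, adjusted p 0.585) and otx2b (0.14, adjusted p 0.475), listed for the same tissue, were not called, so a fall of the pigment epithelium markers together was not seen. With the mimic 7 were called lower and 1 higher (median -0.22), beside 20.3% of all genes lower and 21% higher, among them pax6b at -1.31, pax6a at -0.73 and otx2b at -0.57, whose 4 probes ran from -0.64 to 0.43. Against MO-Ct lhx2b (-0.66, 3 probes from -0.67 to -0.28) and pax6a (-0.52, 6 probes from -0.52 to -0.07) were called lower. This is 12.5% of the list, near the 12.1% of all genes in either direction, but both calls were lower, beside 6.62% of all genes called lower. At an unadjusted p under 0.05 in limma 7 were lower and 1 higher, and the median was -0.17. The part of these eye genes in the changes of the pigment genes was not tested.

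Genes active in segmentation were listed as a second set with a possible relation to stage. In whole embryos any expression of these genes in other tissues is included, so their values are not a measure of somite formation alone. Of 18 measured genes 3 rose and 4 fell in MO-Tbx5a against MO-Ct, with a median of -0.25. The genes were thus called in both directions, and the 38.9% called is near the 37.1% of all genes. The genes called lower were dld, a Notch ligand (-1.32, adjusted p 7.49e-05), mespbb (6.26 ± 0.11 in MO-Ct and 5.25 ± 0.14 in MO-Tbx5a), hes6 (-0.71, with its other probe at 0.58) and mespaa (-0.65). The genes called higher, named after their values were seen, were the tailbud genes tbx16 (0.57), tbxta (0.56) and fgf8a (0.41). With the mimic 7 were called higher and 1 lower (median 0.28), beside 21% of all genes higher and 20.3% lower. In either direction 44.4% were called, near the 41.3% of all genes, but the calls were mostly higher. Among the genes called higher were dld at 1.09, mespbb at 0.89, wnt8a at 0.55 and hes6 at 0.54, although the other hes6 probe changed by -0.6. None of the 18 was called against MO-Ct in limma, beside 12.1% of all genes. At an unadjusted p under 0.05, 2 of the 18 were higher and 1 lower in that comparison. In the plot of the gene lists the medians of the pigment and the segmentation genes were -0.47 and -0.25 in MO-Tbx5a against MO-Ct, and 0.30 and 0.28 with the mimic. The relation between the lists and the stage of the embryos was not tested.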

How the data were processed

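Gene expression was measured in whole zebrafish embryos on 1-colour Agilent arrays. Per the labels, Feature Extraction 10.7 was used for MO-Ct and MO-Tbx5a and 9.1 for MO-Tbx5a+miR-19a. Median signals were background-corrected by the authors using normexp (offset 16), followed by cyclic loess between arrays, and the deposited log2 values of 39162 probes were analysed as given. They ran from 4.06 to 19.4, with 4.4% under 5, where changes can be compressed. The deposited intensity values of the scans of the MO-Tbx5a+miR-19a samples, with the authors' flags, served to name probes and for the comparison with the values. All 19 pigment gene probes were well above background and not saturated in these scans. Accessions were matched to RefSeq genes of GRCz12tu, for names only (24716 probes, 63.1%). Coordinates were not used here.

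One mean per group was fitted to the 8 arrays with lmFit and eBayes (limma 3.58.1, R 4.3.3), with 5 residual degrees of freedom per probe, after a check on simulated data. P-values are two-sided and adjusted over all probes. Changes are first group minus second. Arrays have no read depth, and their number limits the precision. The named genes were all members with every probe, up to 4 genes per list and comparison with the largest change among called genes without overlap, and the 3 genes most like the members, and 1 gene this rule selected is not reported here. The members and lists were chosen with earlier results of these data known. Alternatives were other normalisations, moderation, a filter on dim probes, a fold threshold of 2, the mean of all probes, fits on 2 groups, a replicate block and leaving out each array.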

Additional observations from a re-analysis of the deposited data

How the results depend on the processing

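Directions and counts of called pigment genes were the same within 1.5 times under quantile normalisation, a second cyclic loess, 75th-percentile scaling, trend and robust moderation, the filter on dim probes and fits on 2 groups. Under quantile normalisation, the second cyclic loess and 75th-percentile scaling, the median change of all probes lay between -0.017 and 0.009. No pigment gene's change that was called turned its sign under any alternative. The share of all genes called under each alternative is not given here, so these counts stand without a background. A fold threshold of 2 left 1 gene (pmela) in MO-Tbx5a against MO-Ct, and 0 for the miR-19a group against either other group. The mean of all probes of a gene left 3 of 6 calls of the first comparison, with a median change of -0.321 instead of -0.468, and 1 of 2 for the miR-19a group against MO-Ct. For the mimic against MO-Tbx5a it called 2 genes instead of 3, since dct (0.301, adjusted p 0.0727 in limma) and pmela (0.095, adjusted p 0.466) lost their calls, gch2 gained one (0.403, adjusted p 0.013) and slc45a2 was called by both. Leaving out each array in turn gave 5 to 7 called genes in MO-Tbx5a against MO-Ct, with medians from -0.613 (without MO-Ct replicate 1) to -0.333 (without MO-Ct replicate 2), and 3 to 4 with medians from 0.188 to 0.385 for the mimic against MO-Tbx5a. For the miR-19a group against MO-Ct it gave 0 to 2 called genes (0 without either MO-Ct array or miR-19a group replicate 1, 1 without replicate 2 or 3), with medians from -0.285 to -0.09. Where MO-Ct was reduced to 1 array, that array was assumed to vary like the other groups. The correlations of same-numbered deviations ran from -0.222 to 0.178, beside -0.178 to 0.222 for differently numbered ones. With 2 or 3 arrays per group the deviations within a group depend on each other. These correlations therefore cannot show whether the replicate numbers pair the arrays. With the replicate block no gene was called for the miR-19a group against MO-Ct (0 instead of 2), and between MO-Tbx5a and MO-Ct mitfa was lost (adjusted p 0.0832 in limma) and tyrp1b gained (-0.555, adjusted p 0.0377). The cause of these changes was not tested.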

Other observations

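In the scans of the MO-Tbx5a+miR-19a samples, on the log2 scale after scaling to the 75th percentile, the brightest probe of tyr read 6.69, 6.65 and 6.14 in replicates 1, 2 and 3, so that replicate 3 was 0.56 lower than replicate 1 (-0.56), where the deposited value was 0.14 higher. For pmela the scans read 14.16, 14.11 and 14.34, and for gch2 14.61, 14.66 and 14.78. In these genes replicate 3 was the highest in the scans as in the deposited values, by 0.18 over replicate 1 in each, beside 0.32 for pmela and 0.33 for gch2 in the deposited values. Scans and columns may not share their replicate numbers, as described above, so the differences are given by label only.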
